A study of Mus musculus with 12 samples.

Results

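A set of 51 protein-coding mouse genes that act in ribosome biogenesis or are named for the nucleolus was followed in Dis3l knockout and wild-type blastocysts and embryonic stem (ES) cells. They were chosen by name only: symbols listed in both deposited tables that begin with Utp, Nop, Nol or Rrp and a digit, with Noc, a digit and l, or with Polr1, plus Rrs1, Fbl, Ncl, Npm1, Nolc1, Bop1, Pes1, Wdr12, Gar1 and Nhp2. The tables hold 21958 protein-coding genes for blastocysts and 13009 for ES cells. Of the 51 genes, 49 were tested in each table, that is, they have an adjusted p-value there. Nol3, listed at 0 in blastocysts, and Nol4 were tested in neither. Nop53, Utp11 and Utp4 fell outside the rule because the blastocyst table lists the same gene IDs under older symbols.

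Dis3l encodes an RNA-degrading subunit of the cytoplasmic exosome, and the study asked how its loss changes RNA levels in embryos and in cultured cells. The labels give 12 samples in 4 groups of 3: Dis3l KO blastocysts, Dis3l WT blastocysts, Dis3l KO ES cells and Dis3l WT ES cells. How the knockout allele was made and the strain are not given in the sources used here. All embryos came from females injected with PMSG and hCG and were collected 96 h after hCG, and each blastocyst library was made from 1 embryo. The ES cell lines were derived from such embryos on a layer of inactivated mouse embryonic fibroblasts and grown in serum with LIF. The labels do not say whether the 3 ES cell samples of a genotype are separate lines. The ES cell p-values therefore measure only the spread between the samples behind them, which may be technical. As described below, they rest on 4 sets of counts, although the labels list 6 ES cell samples.

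Ribosomes are assembled in the nucleolus, where RNA polymerase I transcribes the long precursor of the ribosomal RNAs. Small nucleolar RNAs (snoRNAs), carried in protein complexes (snoRNPs), guide the chemical modification of that precursor, and the small-subunit (SSU) processome and the 60S assembly factors cut, fold and package it into the 2 ribosomal subunits. The nuclear exosome trims several of these precursors, whereas Dis3l works in the cytoplasm, and early embryos and ES cells are known for large, active nucleoli. By known role, 5 of the 51 genes encode RNA polymerase I subunits, 19 act in the SSU processome and 40S assembly, 15 in 60S assembly, 6 in snoRNPs and 3 as nucleolar scaffold proteins. Nol3, Nol4 and Nol4l carry the name but have no established role in ribosome assembly.

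Promoter sequences are shown for the 3 genes with an unadjusted p-value under 0.05 in blastocysts (Nol12, Utp3 and Rrp7a), and for Ncl and Nop56, 2 of the most abundant genes of the set. Each window runs from 250 bases before to 50 bases after the RefSeq start site (GRCm38.p6), read 5′ to 3′ on the gene's strand, and capitals mark the motif matches. The motifs searched on both strands were the E-box CACGTG, the ETS site CCGGAAGT, the GC box GGGCGG, the CCAAT box with the letters CCAAT, and the TATA box TATAAA. A match on the other strand is printed as its reverse complement. Nol12 lies on chromosome 15 (window chr15:78934683-78934982, plus strand), Utp3 on chromosome 5 (chr5:88554212-88554511, plus strand), Rrp7a on chromosome 15 (chr15:83122752-83123051, minus strand), Ncl on chromosome 1 (chr1:86359406-86359705, minus strand) and Nop56 on chromosome 2 (chr2:130274162-130274461, plus strand).
Nol12: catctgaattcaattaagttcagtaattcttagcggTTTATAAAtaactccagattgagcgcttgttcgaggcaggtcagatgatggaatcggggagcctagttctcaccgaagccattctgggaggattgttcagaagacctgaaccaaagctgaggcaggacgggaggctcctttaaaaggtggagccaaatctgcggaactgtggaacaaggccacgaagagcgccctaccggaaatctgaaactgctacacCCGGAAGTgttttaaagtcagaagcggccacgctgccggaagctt
Utp3: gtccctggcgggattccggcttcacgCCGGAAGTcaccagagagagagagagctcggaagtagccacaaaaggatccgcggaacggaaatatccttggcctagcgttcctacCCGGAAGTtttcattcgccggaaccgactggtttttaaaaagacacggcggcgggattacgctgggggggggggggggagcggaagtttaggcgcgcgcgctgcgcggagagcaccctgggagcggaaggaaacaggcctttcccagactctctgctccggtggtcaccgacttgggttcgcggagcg
Rrp7a: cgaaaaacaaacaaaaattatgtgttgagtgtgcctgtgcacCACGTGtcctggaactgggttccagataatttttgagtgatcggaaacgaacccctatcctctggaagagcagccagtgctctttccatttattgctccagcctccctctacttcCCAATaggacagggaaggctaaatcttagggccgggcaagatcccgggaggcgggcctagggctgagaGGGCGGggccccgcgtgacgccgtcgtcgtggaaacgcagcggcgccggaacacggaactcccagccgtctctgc
Ncl: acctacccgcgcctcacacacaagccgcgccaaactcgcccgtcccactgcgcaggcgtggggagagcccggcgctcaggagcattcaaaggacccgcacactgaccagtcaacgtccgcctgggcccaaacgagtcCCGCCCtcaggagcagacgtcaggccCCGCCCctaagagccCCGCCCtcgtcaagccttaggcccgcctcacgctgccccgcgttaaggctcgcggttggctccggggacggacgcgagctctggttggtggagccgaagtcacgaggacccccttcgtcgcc
Nop56: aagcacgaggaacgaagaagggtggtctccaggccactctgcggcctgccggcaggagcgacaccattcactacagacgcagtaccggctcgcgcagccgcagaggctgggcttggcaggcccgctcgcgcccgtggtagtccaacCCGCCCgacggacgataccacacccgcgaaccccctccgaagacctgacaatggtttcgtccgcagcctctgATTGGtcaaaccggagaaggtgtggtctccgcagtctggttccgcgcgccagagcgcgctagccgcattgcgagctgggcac

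The Nol12 window holds an ETS site 6 bases after the start and, 214 and 212 bases before it, 2 TATA box letter matches on opposite strands that share 4 bases. No other matches in the 5 windows overlap. Utp3 has 2 ETS sites, 224 and 138 bases before its start. The window of Rrp7a holds an E-box, a CCAAT box and a GC box at 208, 93 and 25 bases before the start. Ncl has 3 GC boxes and none of the other motifs, and Nop56 has 1 GC box and 1 CCAAT box. RefSeq windows matched 41 of the 51 genes, with 49 windows in all. Those without a window were Rrp12, Nol4, Npm1, Fbl, Nol6, Utp23, Bop1, Rrs1, Nol3 and Utp6. The ETS site was in 10 of the 49 windows (20.4%), against 5.15% of the 21263 windows of protein-coding genes and 3.89% of all 32851 windows. GC boxes were in 35 of 49 (71.4%, against 46.2% of coding and 35.7% of all windows) and E-boxes in 7 (14.3%, against 7.84% and 7.15%). CCAAT was in 13 windows (26.5%, against 38.2% and 37.4%) and the TATA box in 4 (8.16%, against 12.6% and 13.6%). These are letter matches in a fixed window, not sites shown to be bound.

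The deposited tables give 1 mean, fold change and p-value per gene. The whole reads behind each mean were recovered, and a count column below is 1 set of such reads. Columns that raise a fold change are called the positive side, and those that lower it the negative side. The blastocyst table rests on 6 columns, 3 a side, with relative depths (size factors) from 0.695 to 1.62. The ES cell table rests on 4 columns, 2 a side, from 0.759 to 1.25, although the labels list 6 ES cell samples. No source used here says which genotype was divided by which, so signs are as deposited and no column was assigned to a sample or a genotype. The targeted gene gave no firm answer: in blastocysts Dis3l had 26, 8 and 0 reads on the positive side against 10, 4 and 8 on the negative side, with an adjusted p-value of 0.997 by the authors' deposited table. In ES cells it had 14 and 8 reads on the positive side against 39 and 39 on the negative side, and the authors' deposited table lists a p-value of 0.00778, or 0.445 after adjustment. Fold changes of the ES cell table are shrunken towards 0, so sizes cannot be compared between the tables. In bulk RNA of this kind, fewer cells of a type and less RNA per cell cannot be told apart.

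In blastocysts most genes of the set had a negative fold change, and none passed the adjusted threshold. By the authors' deposited table (DESeq2 Wald test), 0 of the 49 tested genes had an adjusted p-value under 0.05, where 0.0986% of all 15209 tested genes did. Without adjustment 3 genes had a p-value under 0.05, each negative, against 3.53% negative, 2.68% positive and 6.21% of all tested genes in either direction. A negative log2 fold change was listed for 38 of the 49 genes (77.6%), against 51.7% of all tested genes, and the median was −0.26, against −0.04 over all tested genes and −0.03 over the tested protein-coding genes, in the authors' deposited table. The smallest adjusted p-value in the set was 0.631.

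**Figure D1:**
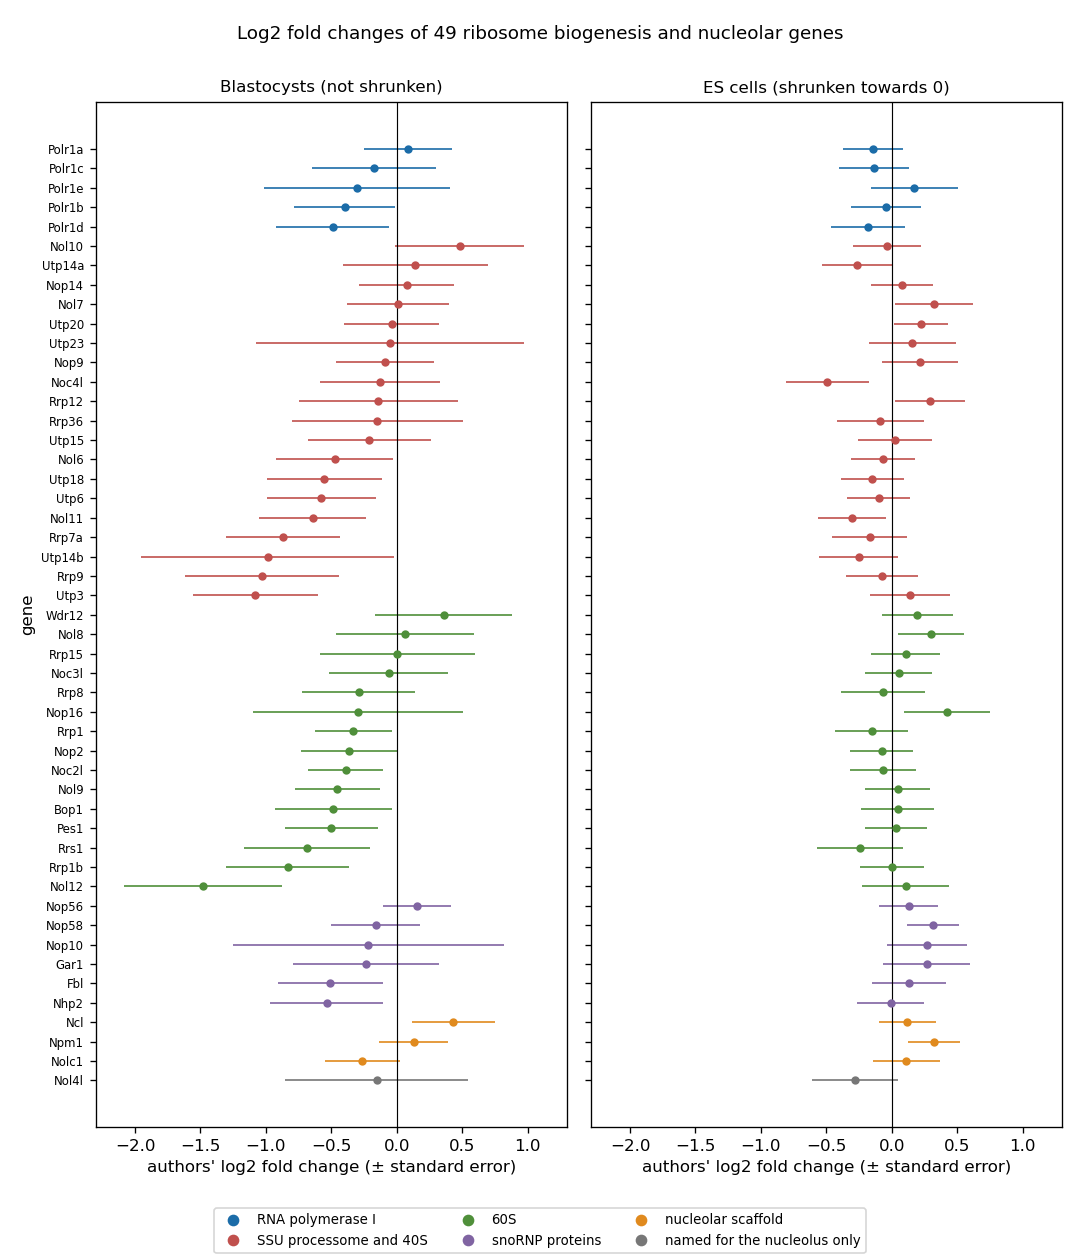
Log2 fold change of each of the 49 tested genes (horizontal axis, log2 scale, bars ± 1 standard error) in the authors' deposited tables, by role, for blastocysts and ES cells. In blastocysts 38 points lie below 0, with Nol12 lowest at −1.48. In ES cells, where values are shrunken towards 0, 22 lie below 0.

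Nol12, a nucleolar RNA-binding protein of the 60S pathway that acts in cutting the ribosomal RNA precursor, had the most negative fold change of the set. Its columns held 61.4, 101 and 27.4 normalised reads on the positive side against 139.8, 165 and 227 on the negative side. The sides did not overlap, with means of 63.4 ± 37.1 and 177 ± 45.1 normalised reads (SD, n = 3 columns each). The authors' deposited table gave a log2 fold change of −1.48 ± 0.60 (SE; 95% interval −2.66 to −0.30), p-value 0.0138, adjusted to 0.631. Leaving out 1 column at a time moved the log2 ratio of the sides between −1.998 and −1.12.

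Utp3, known in yeast as Sas10, is a component of the SSU processome. It had 109, 75.1 and 105 normalised reads on the positive side against 182, 174 and 256 on the negative side, so the sides lay apart, with means of 96.2 ± 18.4 and 204 ± 45.3 (SD, n = 3 columns each). Its log2 fold change was −1.08 ± 0.48 (SE; 95% interval −2.02 to −0.15), p-value 0.0235, adjusted to 0.710, in the authors' deposited table. Rrp7a, another factor of 40S assembly, also had its 3 lower columns on the positive side. The values were 163, 121 and 151 normalised reads there and 310.5, 185 and 296 on the negative side, with means of 145 ± 21.6 and 264 ± 68.7 (SD, n = 3 columns each). By the authors' deposited table the log2 fold change was −0.87 ± 0.43 (SE; 95% interval −1.72 to −0.01), p-value 0.0464, adjusted to 0.782. Exons of Rrp7a overlap those of Serhl on the opposite strand, and the blastocyst protocol as given marks no strand, so reads of the pair cannot be told apart.

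The other 2 of the 5 most negative genes, Rrp9 and Utp14b, varied more within a side. Rrp9 is a protein of the U3 snoRNP, which directs early cuts of the precursor. It had 121, 65.0 and 75.4 normalised reads on the positive side against 306, 105 and 124 on the negative side. The sides overlapped. The authors' deposited table gave a log2 fold change of −1.03 ± 0.59 (SE). Without the first negative-side column the log2 ratio of the sides was −0.39. Utp14b, an SSU processome gene whose exons overlap those of Acsl3 on the same strand, had 113, 16.2 and 4.57 normalised reads on the positive side against 96.5, 49.1 and 121 on the negative side. Its sides overlapped too, and the authors' deposited table gave −0.99 ± 0.97 (SE). Its related gene Utp14a, on the X chromosome, had a log2 fold change of 0.14 ± 0.56 (SE) in the authors' deposited table. How reads shared by such copies were counted is not given in the sources used here, so both are uncertain.

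Among the 15 genes of 60S assembly, 12 had a negative fold change, against 51.7% of all tested genes, and the median was −0.36 in the authors' deposited table. Pes1, Bop1 and Wdr12 form the PeBoW complex, which is needed to cut the precursor of the large subunit RNAs. Pes1 had 243, 371 and 418 normalised reads on the positive side against 550.4, 477 and 432 on the negative side, which did not overlap. Bop1 had 284, 365 and 158 against 329, 256 and 547, and Wdr12 had 144, 142 and 375 against 209, 187 and 118; both overlapped. The 3 log2 fold changes were −0.50, −0.49 and 0.36 in that order in the authors' deposited table, with standard errors of 0.36, 0.45 and 0.52. So the members of the complex did not share a sign, and none had a p-value under 0.05. Rrp1b had 164, 105 and 98.3 normalised reads on the positive side against 194, 185 and 276 on the negative side. Its relative Rrp1 had 669.6, 479 and 592 against 708, 721 and 762. Neither of these 2 related genes overlapped between sides. Their log2 fold changes were −0.83 ± 0.47 (SE) and −0.33 ± 0.29 (SE) in the authors' deposited table. Rrp1b shares exonic sequence with Hsf2bp, and Pes1 with 4930556J24Rik, each on the opposite strand.

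Counted over columns, 9 of the 47 genes with recovered reads had all 3 positive-side columns below all 3 negative-side columns, and 0 had them above. Reads were solved only up to a mean of 1000, which leaves out Ncl, Npm1 and Nop56, each with a positive fold change. Over all tested protein-coding genes with recovered reads and a mean of 10 to 500, 6.77% had the positive side lower and 5.68% higher. Within that range of means, 7 of 42 genes of the set had it lower and 0 higher. Beyond Nol12, Utp3, Rrp7a, Rrp1b, Rrp1 and Pes1, the 9 were Rrs1, Nol9 and Noc2l, of which Rrs1 and Nol9 are named because their values were seen. Rrs1, which helps to place the 5S ribosomal RNA, had 114, 118 and 117 normalised reads on the positive side against 219, 216 and 124 on the negative side. Nol9, a kinase that acts on RNA ends during processing of the large subunit RNAs, had 321, 389.7 and 306 against 434, 468 and 492. Noc2l, a 60S export and assembly factor whose exons overlap Samd11 on the opposite strand, had 894, 813 and 587 against 1032, 974 and 1004. In Rrs1 the gap between the sides was narrow: the highest positive-side and the lowest negative-side column held 118 and 124 normalised reads.

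**Figure D2:**
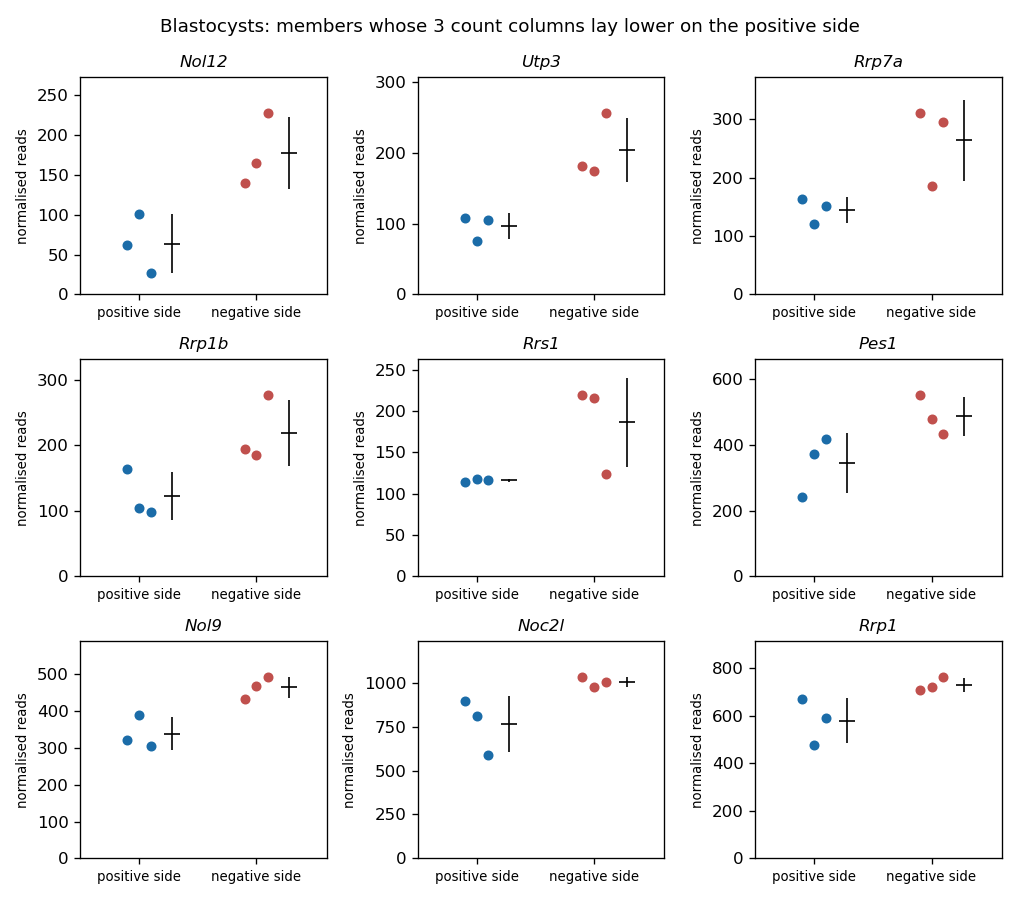
Normalised reads (vertical axis, linear, from 0) of the 9 genes whose blastocyst columns lay apart, one point per count column, with the mean ± SD of the 3 columns of each side. In each panel all 3 positive-side points lie below all 3 negative-side points, with the closest pair in Rrs1 at 118 and 124.

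RNA polymerase I subunits of the set had 4 of 5 negative fold changes, against 51.7% of all tested genes, with a median of −0.31, in the authors' deposited table. Subunits that the name rule missed, Twistnb, Cd3eap and Znrd1, were counted with the other pathway genes. Their log2 fold changes were −0.35 ± 0.70, −0.15 ± 1.16 and −0.90 ± 0.95 (SE) in the authors' deposited table. Polr1a, the largest subunit, had 407, 399 and 368 normalised reads on the positive side against 359, 435 and 314 on the negative side. Polr1b, the second largest subunit, had 354, 211 and 384 against 465, 473 and 311. Polr1c, shared with RNA polymerase III, had 188, 146 and 123 against 124, 178 and 216. In each of these the sides overlapped. Polr1d, the other shared subunit, had 128, 150.2 and 208 against 235, 245 and 201, and Polr1e, a subunit specific to this polymerase, had 104, 38.6 and 68.6 against 148, 49.1 and 63.3. Their sides overlapped as well. In the order a to e the log2 fold changes were 0.08, −0.40, −0.17, −0.49 and −0.31 in the authors' deposited table, with standard errors from 0.34 to 0.71.

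Of the 6 snoRNP proteins of the set 5 had a negative fold change, against 51.7% of all tested genes, with a median of −0.23, in the authors' deposited table. Dkc1, a further H/ACA protein, was counted with the other pathway genes, at a log2 fold change of −0.21 ± 0.40 (SE). Fbl, the methyltransferase of box C/D snoRNPs, had 264, 201 and 176 normalised reads on the positive side against 282, 381 and 250.3 on the negative side. Nop58, which with Nop56 forms the core of that particle, had 589.6, 505 and 496 against 658, 731 and 388. Both overlapped between sides. For Nop56, whose reads were not recovered, the authors' deposited table lists a mean of 1227 with a fold change (log2) of 0.15 ± 0.26 (SE), and for Nop58 it gave −0.16 and 0.34. Both values were smaller than their standard errors. The H/ACA proteins, which bind the snoRNAs that guide pseudouridine formation, gave 104, 65.0 and 114 against 137, 109 and 86.3 for Gar1. Nhp2 had 126, 187 and 222 against 198, 303 and 273, and Nop10 had 71.4, 8.12 and 22.9 against 64.3, 40.1 and 14.4. Each of these overlapped, and Nop10 varied widely within both sides. The log2 fold changes of Fbl, Gar1, Nhp2 and Nop10 were −0.51, −0.24, −0.54 and −0.22 in the authors' deposited table, with standard errors of 0.40, 0.56, 0.44 and 1.04.

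In the SSU processome and 40S group, 15 of 19 genes had a negative fold change, against 51.7% of all tested genes, with a median of −0.15, in the authors' deposited table. The highest value among the 49 tested genes was here: Nol10, the counterpart of a yeast small-subunit factor, had 147, 191 and 126 normalised reads on the positive side against 108, 129 and 94.9 on the negative side, which overlapped. The authors' deposited table gave it a log2 fold change of 0.48 ± 0.49 (SE). Among the scaffold proteins, Ncl (nucleolin) was at 0.43, Npm1 (nucleophosmin) at 0.13 and Nolc1, a chaperone of snoRNPs named here to give all 3 although its value was known, at −0.26 in the authors' deposited table, with standard errors of 0.32, 0.26 and 0.29. None of these 3 had an unadjusted p-value under 0.05. Nol4 had 4.28 normalised reads in 1 positive-side column and 0 in the other 5 columns, and Nol4l had a log2 fold change of −0.15 ± 0.70 (SE) in the authors' deposited table. The SSU and 60S genes not described singly lay between −0.64 (Nol11) and 0.08 (Nop14) in the authors' deposited table, each with overlapping sides.

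The precision of single genes was low. Of the 49 intervals (95%), 3 excluded 0, 12 stayed within 2-fold either way, 32 included a 2-fold lower value on the positive side and 13 a 2-fold higher one. Set together by column, the medians over the genes of the set went the same way within each side. This covers 46 genes with recovered reads and leaves out Ncl, Npm1 and Nop56, each with a positive fold change. The median deviation of 46 genes from their own mean, on the log2 scale with a pseudocount of 0.5, was −0.10, −0.14 and −0.11 in the positive-side columns against 0.25, 0.19 and 0.09 in the negative-side columns. For 6004 background genes with a mean of 50 to 500 these medians were 0.06, 0.06 and 0.03, then 0.04, 0.06 and 0.05. All 3 positive-side medians of the set lay below all 3 negative-side medians, which is a description of these columns and carries no test. The 60S genes kept this order, but not every role did. In the first positive-side and the third negative-side column the medians were 0.11 and −0.16 for RNA polymerase I subunits. For the snoRNP proteins with recovered reads they were 0.07 and −0.21. Over these 46 genes, leaving out any 1 column kept the median log2 ratio of the sides negative, between −0.38 and −0.28. The deposited median over all 49 genes was −0.26.

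**Figure D3:**
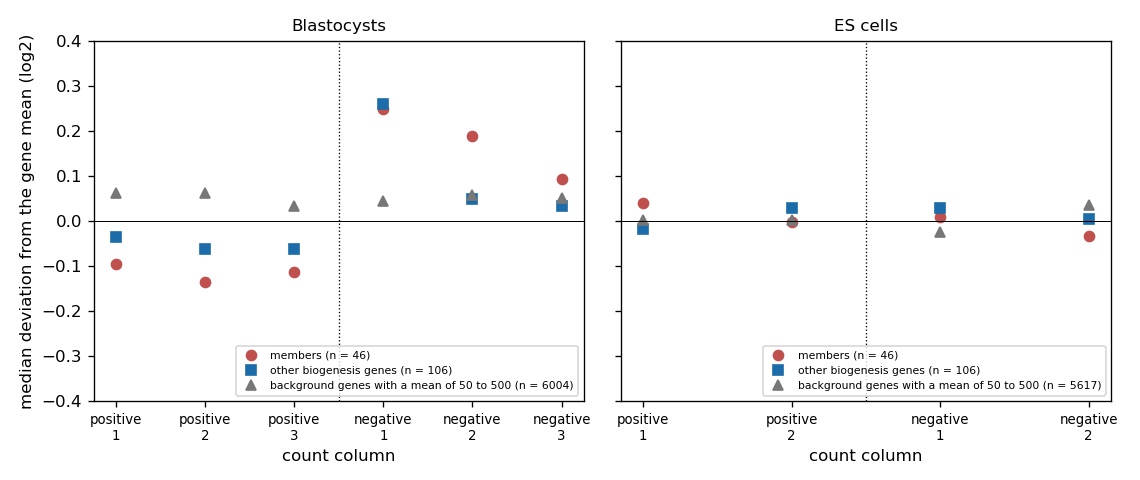
Median log2 deviation from the gene mean (vertical axis) in each count column (horizontal axis) for 46 genes of the set, 106 other ribosome biogenesis genes and background genes with a mean of 50 to 500. Genes without recovered reads, in blastocysts Ncl, Npm1 and Nop56, are left out. In blastocysts the set lies between −0.14 and −0.10 on the positive side and between 0.09 and 0.25 on the negative side, and in ES cells between −0.03 and 0.04.

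Other genes of the pathway, from a list of 110 symbols, gave 108 genes in the blastocyst table, all tested. By the authors' deposited table (DESeq2 Wald test) 0 of 108 had an adjusted p-value under 0.05, and 5 had an unadjusted p-value under 0.05, all negative, against 3.53% negative and 6.21% in either direction over all tested genes. As a share of 108, the 5 lie under the either-direction background and over the negative one. A negative sign was listed for 68 of 108 (63.0%), against 51.7% of all tested genes. The median log2 fold change was −0.15, against −0.04 over all tested genes. The 5, named after their values were seen, were Ddx51 (−1.43, standard error 0.55), Tsr2 (−1.41, 0.71), Wdr18 (−1.01, 0.43), Bysl (−0.85, 0.41) and Rbm28 (−0.79, 0.37) in the authors' deposited table. Ddx51 and Rbm28 act in 60S assembly, Wdr18 is a partner of the enzymes that release late 60S particles, Bysl is needed for 40S maturation and Tsr2 is a carrier of a 40S protein. Counted over columns, 12 of 106 genes (11.3%) had the positive side lower and 3 (2.83%) higher, against 6.77% and 5.68% in the background. RNA polymerase I needs Ubtf and Rrn3 to start transcription, and both, also picked once their values were known, had fold changes near 0 in the authors' deposited table: −0.08 ± 0.28 (SE) and −0.13 ± 0.44 (SE).

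Markers of the cell types in a blastocyst differed between columns as well. The summed normalised reads of the pluripotency markers recovered (5 of 8) were 677 to 1375 on the positive side against 991 to 1453 on the negative side. Those of primitive endoderm (4 of 5 recovered) were 1138 to 1742 and 1894 to 2236, which did not overlap. These sums leave out Dab2, whose mean of 3406 was the highest of that list. Its log2 fold change was positive, at 0.25 ± 0.27 (SE) in the authors' deposited table. The pluripotency sums leave out Dppa5a and Tfcp2l1, with means of 1751 and 1620, the highest of their list. The log2 fold changes of Dppa5a and Tfcp2l1 were −0.13 ± 0.26 (SE) and 0.02 ± 0.27 (SE) in the authors' deposited table. Of 6 trophectoderm markers only Tfap2c had recovered reads, and the ranges overlapped (335 to 507 and 297 to 494 normalised reads). All 19 markers of these 3 lists had a mean above 0, and 6 of 9 feeder fibroblast genes, among them Col1a1 and Col1a2, were listed at 0. The authors' deposited table (DESeq2 Wald test) gives 5 of these 19 markers an unadjusted p-value under 0.05, against 6.21% of all tested genes. They were Nanog (log2 fold change −1.93, standard error 0.73), Pou5f1 (log2 fold change −1.21, standard error 0.48), Krt8 (log2 fold change −0.87, standard error 0.36), Krt18 (log2 fold change −0.63, standard error 0.29) and Gata3 (0.52, 0.26). Adjusted, their p-values ran from 0.546 to 0.769, so none passed the threshold. The part of such differences in the values of the ribosome biogenesis genes was not tested. Exons of 13 of the 51 genes overlap a protein-coding gene on the opposite strand, by GENCODE M21. Among the 9 genes with separate sides these are Noc2l, Pes1, Rrp1b and Rrp7a, whereas Nol12, Utp3, Rrs1, Nol9 and Rrp1 overlap no other gene's exons. Of the complexes described, Bop1, Wdr12, Nhp2 and Nop56 overlap Mroh1, Carf, Rmnd5b and Idh3b, and Rrp9 overlaps Parp3.

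In ES cells the same genes showed no common direction. By the authors' deposited table (DESeq2 Wald test) 0 of 49 genes had an adjusted p-value under 0.05, where 0.261% of all 10739 tested genes did. Without adjustment, too, 0 had a p-value under 0.05, against 3.42% negative, 2.21% positive and 5.62% in either direction over all tested genes. Fold changes were positive for 27 and negative for 22 genes (44.9%), where 50.0% of all tested genes were negative. The median was 0.03, against −0.000109 over all tested genes, in the authors' deposited table. The smallest unadjusted p-value of the set, 0.106, was that of Npm1 in the authors' deposited table.

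Among the 49 tested genes the most positive fold changes were those of Nop16, Nol7, Npm1, Nop58 and Nol8, from 0.42 to 0.30 in the authors' deposited table. Nop16, a 60S assembly factor, had 44.7 and 55.3 normalised reads on the positive side against 42.8 and 17.4 on the negative side. Nol7, a small-subunit factor, had 98.2 and 84.3 against 82.7 and 51.2, and Nol8, a nucleolar protein of the 60S group, had 201 and 238 against 157 and 185. In these 3 the sides did not overlap, with 2 columns a side. Npm1 and Nop58, whose reads were not recovered, had means of 2867 and 1319 and log2 fold changes of 0.32 ± 0.20 (SE) and 0.31 ± 0.20 (SE) in the authors' deposited table. The most negative was Noc4l, which joins Nop14 in 40S assembly: 54.3 and 26.3 normalised reads on the positive side against 62.8 and 76.3 on the negative side, with a log2 fold change of −0.49 ± 0.32 (SE) in the authors' deposited table. Nol11, which links the processome to transcription, had 145 and 166 against 168 and 233. Both of these genes were lower on the positive side in every column. Nol4l, Utp14a and Utp14b followed with −0.28, −0.27 and −0.25 in the authors' deposited table, each with overlapping sides.

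Over the 48 genes with recovered ES cell reads, 11 had both positive-side columns above both negative-side columns and 4 had them below. Over genes with a mean of 10 to 500 the shares were 20.1% and 20.6%. Within that range of means, 9 genes of the set had the positive side higher and 4 lower, of 45. With 2 columns a side such separation is common, and the count of 11 (22.9% of 48) is close to the background share, while the count of 4 (8.33%) lies under it. Those with the higher positive side were Nol4, Nol7, Nol8, Nop10, Nop16, Nop9, Rrp12, Rrp15, Utp20, Utp23 and Utp3, and those with the lower Noc4l, Nol11, Nol6 and Utp6. Nol4, not tested for its low mean of 6.32, had 11.98 and 6.58 normalised reads against 2.85 and 3.87.

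Over all tested genes in ES cells 50.0% had a negative fold change, the share to set beside the small groups here. By role, 5 of 6 snoRNP proteins and 3 of 3 scaffold proteins of the set had positive ES cell fold changes, with medians of 0.20 and 0.12, in the authors' deposited table. For the snoRNP proteins these were 0.13 (Fbl), 0.13 (Nop56), 0.31 (Nop58), 0.27 (Gar1), −0.01 (Nhp2) and 0.27 (Nop10) in the authors' deposited table, with standard errors from 0.20 to 0.33. Of the RNA polymerase I subunits of the set 1 of 5 was positive: Polr1e at 0.17, against −0.14 (Polr1a), −0.04 (Polr1b), −0.14 (Polr1c) and −0.18 (Polr1d) in the authors' deposited table. Each of these 11 values was smaller than its standard error except that of Nop58. None of them had a p-value under 0.05. Outside the set, Twistnb, Cd3eap, Znrd1 and Dkc1 were at 0.04, −0.002, 0.40 and −0.13 in the authors' deposited table, with standard errors from 0.23 to 0.33. The 60S genes were positive in 10 of 15 cases and the SSU and 40S genes in 8 of 19, with medians of 0.04 and −0.07, in the authors' deposited table. In the PeBoW complex, Pes1, Bop1 and Wdr12 were at 0.03, 0.04 and 0.20 in the authors' deposited table, and their sides overlapped.

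Of the other pathway genes 107 were tested in ES cells and 0 had an adjusted p-value under 0.05 (DESeq2 Wald test) in the authors' deposited table. An unadjusted p-value under 0.05 was listed there for 4, named after their values were seen: Las1l (−0.64, standard error 0.27), Nip7 (−0.56, 0.28), Tcof1 (−0.47, 0.23) and Riok3 (0.55, 0.26), log2 fold changes of the authors' deposited table. Over all tested genes 5.62% had such a p-value, so the 4 are no larger a share than the background. Las1l and Nip7 act in 60S assembly, Tcof1 (treacle) in RNA polymerase I transcription and Riok3 with 40S precursors. Reads were recovered for 107 of the other pathway genes, which leave out Mdn1 and include Myc, not tested in ES cells. Among these the positive side was higher in 19 (17.8%) and lower in 23 (21.5%), Myc being 1 of the 23. These shares were near the 20.1% and 20.6% of all genes with a mean of 10 to 500. Feeder fibroblast genes were present in the ES cell columns: 9 of 9 had reads, and the summed normalised reads of the 8 recovered were 705 to 897 on the positive side against 813 to 1989 on the negative side, highest in 1 negative-side column. The pluripotency markers (7 of 8 recovered) summed to 3102 to 3821 and 4206 to 4857 normalised reads, and reads of all 8 were present. The pluripotency sums did not overlap between sides. Their part in the values of the ribosome biogenesis genes was not tested.

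Set side by side, 19 of the 49 genes had negative fold changes in both tables, 8 were positive in both, 19 were negative in blastocysts and positive in ES cells, and 3 were positive in blastocysts and negative in ES cells. Because the direction of each ratio is unknown, the positive side may hold a different genotype in each table, and like signs need not mean like effects of the knockout. Of the 3 blastocyst genes with the smallest p-values, Nol12 was low in ES cells, with 18.4 and 22.4 normalised reads on the positive side against 15.2 and 19.3 on the negative side. Rrp7a had 86.2 and 77.7 against 111 and 81.2; both genes overlapped between sides. Utp3 had 66.3 and 63.2 against 57.0 and 56.0, higher on the positive side in both columns, where the blastocyst columns were lower on the side called positive there. Their ES cell log2 fold changes were 0.11, −0.17 and 0.14 in the authors' deposited table, with standard errors of 0.33, 0.29 and 0.30. A difference between embryos and ES cells was not tested, since the tables differ in library chemistry and in shrinkage.

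The levels of these genes were high in both materials. The authors' mean was divided by the length of the longest transcript, and each gene was ranked among the tested protein-coding genes of the same table. In blastocysts 45 of 49 genes lay above the median coding gene and 27 above percentile 75, with a median percentile of 78.5. In ES cells 41 lay above the median gene and 27 above percentile 75, with a median percentile of 76.8. Npm1 was the most abundant per length in both, at 1922 and 1756 normalised reads per kb. In blastocysts Ncl (565 per kb), Nop56 (338), Rrp1 (330.3) and Noc2l (314) came next. In ES cells these were Nhp2 (168 normalised reads per kb), Nop58 (139), Ncl (138) and Polr1c (101.6). This order depends on the length: by the mean transcript length Nhp2 and Polr1c were at percentiles 91.0 and 90.3 in ES cells, below Nop58 (99.3), Ncl (97.7), Utp20 (96.8) and Nop56 (96.0). Levels per kb are comparable within a table only, because the libraries were made by different chemistries. Ranks went together between tables (Spearman's rho 0.673 over 49 genes, which share transcript lengths), with Nol12 among the exceptions, at percentile 58.4 in blastocysts and 12.5 in ES cells. Polr1e was at percentile 53.5 and 20.5, far below the other Polr1 genes of the set in ES cells, which ranked from 73.8 to 92.2. Subunits outside the set ranked at percentiles 26.7 (Cd3eap), 55.0 (Twistnb) and 76.5 (Znrd1) there. The box C/D pair stood at percentile 96.3 (Nop56) and 73.5 (Nop58) in blastocysts by the longest transcript, but at 98.3 and 93.7 by the mean transcript length, so their gap depends on the length used. Nol4l was lowest in ES cells, at percentile 5.30.

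**Figure D4:**
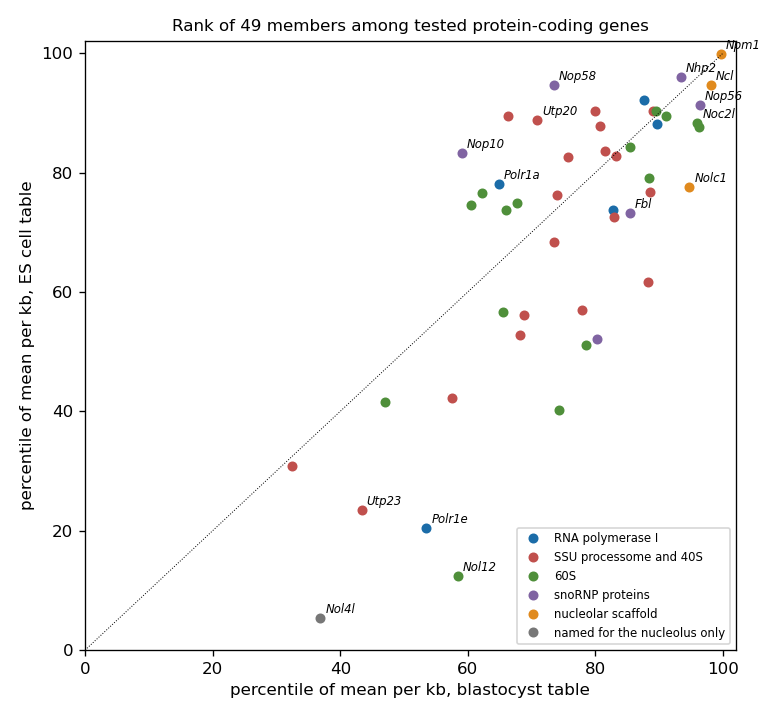
Percentile of the authors' mean per kb among tested protein-coding genes in blastocysts (horizontal axis) and ES cells (vertical axis), one point per gene, coloured by role. Most of the 49 points lie above percentile 50 on both axes, and Nol12, Polr1e and Nol4l lie low in ES cells.

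Ncl, Nop56 and Nop58 share a feature the choice of genes did not use: by GENCODE M21 they host 12 snoRNA genes in all, 3 in Ncl, 5 in Nop56 and 4 in Nop58. snoRNA hosts made up 1.66% of the tested protein-coding genes in blastocysts and 2.10% in ES cells. All 12 snoRNAs, among them Snord82 in Ncl, Snord57 in Nop56 and Snord70 in Nop58, were listed at 0 in the blastocyst table, so the data describe the host transcripts only. The ES cell table lists protein-coding genes only. The 51 genes lie on 19 chromosomes, with Utp14a the one gene on X.

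Of the 3 genes outside the rule for their older symbols, Utp4 (listed in blastocysts as Cirh1a) stood at 0.62 ± 0.34 (log2 fold change ± SE, blastocysts) and 0.22 ± 0.26 (ES cells) in the authors' deposited tables. Nop53 (Gltscr2) had −0.30 ± 0.42 and 0.01 ± 0.25, and Utp11 (Utp11l) had −0.10 ± 0.68 and 0.14 ± 0.33 (log2 fold change ± SE), by the same authors' deposited tables. Adding them would leave the count of genes past the adjusted threshold at 0 in both tables.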

How the data were processed

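RNA sequencing was carried out by the authors on 12 samples, and 2 deposited tables of comparison results were used, 1 for blastocysts and 1 for ES cells. Single-embryo cDNA was tagmented for the blastocyst libraries, whereas stranded libraries of ribodepleted RNA were made from the ES cells, per the labels' protocols. The submitters' processing notes name STAR 2.4.0b, bedtools, SAMtools, featureCounts, Subread 2.0.1 and DESeq2 1.34.0 and the build GRCm38, without parameters. Each table gives, per gene, a signal that is the deposited mean of size-factor-normalised counts over libraries. Beside it the authors deposited a log2 ratio between genotypes and the SE of that ratio. The Wald statistic is a score deposited by the authors, and p-values, raw and Benjamini-Hochberg adjusted, are theirs as well, as deposited. The planned design assumed counts per sample. The tables hold none, so the authors' own statistics were used, with adjusted p-values under 0.05 as the threshold over all genes of a table, and 0 columns of per-sample values were left aside.

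From each mean, the whole reads per count column were solved for, up to a mean of 1000. In blastocysts the reads whose refitted log2 fold change matched the deposited one within 1e-06 were kept, with a wider tolerance for low means. Where none matched but the mean allowed only 1 solution, that solution was kept. ES cell reads were solved from the mean alone, without a match to the fold change. This gave reads for 47 of the 51 genes in blastocysts and 48 in ES cells. It also gave them for 8863 of 8898 and 10087 of 10087 background genes, which are tested protein-coding genes with a mean of 10 to 500. Columns were not assigned to samples. Of the 282 blastocyst read counts of these genes, 265 (94.0%) were even numbers, against 45.3% in ES cells, so a blastocyst count may not be 1 independent fragment. Intervals (95%) are the log2 fold change ± 1.96 standard errors and cover the authors' model only.

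The genes and the lists were chosen with earlier results of these data known. Genes named singly were Dis3l, genes with an unadjusted p-value under 0.05, per table the 5 most positive, the 5 most negative and the 5 most abundant per kb, and related pairs. Also named were every RNA polymerase I subunit and snoRNP protein of the set, and every PeBoW member. A few other genes are named to complete a group, a range or a count, and were picked once their values were known. Overlaps and snoRNA hosts came from GENCODE M21, and promoters from RefSeq. Gene coordinates in the tables equalled GENCODE M21 for 35 (blastocyst) and 47 (ES cell) of the 51 genes. Protein identity of the related pairs was not computed here. Calculations used Python 3.11.15, numpy 2.4.6, pandas 2.3.3, scipy 1.17.1 and numba 0.67.0 and were tested on simulated data.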

Additional observations from a re-analysis of the deposited data

Results flagged for a closer look

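Utp3, the SSU processome gene, lay apart between the sides in both tables, with ratios of different sign. The log2 ratio of the positive to the negative side from the recovered reads was −1.08 in blastocysts, with all 3 positive-side columns lower, and 0.2 in ES cells, with both positive-side columns higher. Its ES cell log2 fold change was 0.14 ± 0.30 (SE) in the authors' deposited table. With 2 columns a side such separation is common: in ES cells 20.1% of background genes had the positive side higher and 20.6% lower. The difference between the materials was not tested. Which genotype each side holds is unknown in both tables, so if one ratio were turned the gene would go the same way in both materials.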

How the results depend on the processing

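The count of genes past the threshold was 0 in both tables, so the stricter threshold of 0.01 could not change it and is no check. The count stayed at 0 with adjustment over every gene with a p-value, over genes with a mean of at least 50 or over autosomal genes. It also stayed at 0 with rescaled Wald statistics. In blastocysts the smallest adjusted p-value of the set (DESeq2 Wald test) was 0.631 as deposited. It rose to 0.718 over every gene, and was 0.56 and 0.625 over genes with a mean of at least 50 and autosomal genes. With rescaled statistics it was 0.926. Without adjustment the count was 3 in blastocysts, and 5 (blastocysts) and 4 (ES cells) for the other pathway genes. The blastocyst median kept its sign under every alternative run. The share of positive fold changes was 22.4% in blastocysts. From the ratio of recovered reads it was 17.4%, which leaves out Ncl, Npm1 and Nop56, 3 genes with positive fold changes. That ratio is no independent check, because blastocyst reads were solved to match the deposited fold change (largest log2 gap 0.0097). Over the 30 genes whose exons overlap no other gene, an alternative added after seeing the data, the share was 13.3%. Over the genes with recovered reads, leaving out 1 count column in turn gave blastocyst medians from −0.38 to −0.28 and positive shares from 17.4% to 28.3%. In ES cells the medians ran from −0.0095 to 0.080 and the shares from 47.8% to 60.9%. The ES cell median without the second positive-side column was the one below 0. The cause was not tested. Over single genes, 314 of 322 values in blastocysts and 202 of 230 in ES cells stayed within 1 standard error of the deposited value. The sign changed under at least 1 alternative for 21 of 46 genes in blastocysts and 20 of 46 in ES cells. Ranks per kb by mean transcript length had medians of 79.2 and 75.4. No paired analysis was possible because the tables carry no replicate numbers. A refit with edgeR or DESeq2 and a test of the difference between materials were not run. Only 12 of 49 blastocyst intervals stayed within 2-fold either way, which limits what can be detected there. The cause was not tested.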
